A study of Rattus norvegicus with 3 samples.

Results

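RNA from rat retinas injected with streptozotocin (STZ) was set against RNA from retinas injected with saline. The comparison covered 12631 of the 18425 genes in the deposited table. These are the genes with a mean of at least 10 reads over the 3 libraries of the study and a whole-number read count in each. Of the 3 libraries, 2 make the comparison, 1 for STZ and 1 for saline. The library of the citrate buffer group served as a second control, to show where the saline library stood apart. All pups were wild-type Sprague-Dawley rats that received an intravitreal (IVIT) injection at P1 (day 1), and their retinas were collected at P4 (day 4). The STZ group received 10 µg of STZ, and the methods give an injected volume of 1 µl. STZ was made up in citrate buffer, so the STZ and saline groups differed in vehicle as well as in drug. The labels name neither the number of animals in a library nor whether retinas were pooled. With 1 library per condition there is no spread between animals, so no difference reported here has a replicate check and no p-value was computed.

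STZ is a glucosamine joined to a methylnitrosourea group, and it alkylates DNA. In the first postnatal days the rat retina still holds dividing progenitor cells, which give rise to rods, bipolar cells and Müller glia after the ganglion, amacrine, horizontal and cone cells have been born. Cells with damaged DNA stabilise p53, a transcription factor whose targets hold the cell cycle or start apoptosis, and microglia clear the cells that die. The retina borders on the ciliary body and iris at its rim, on the pigment epithelium behind and on the lens and vitreous in front, so a dissected retina can carry some of these tissues.

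The libraries held 21977846 reads (saline), 22031241 (STZ) and 21992701 (buffer), and the genes compared took 84.5% of the reads in each. The fold of a gene was (FPKM + 1) in STZ divided by (FPKM + 1) in saline, where FPKM is the fragment number divided by transcript length and library size. A gene was called lower below 0.65 and higher above the reciprocal of that value, 1.54, the thresholds of the study's methods. By this rule 255 genes (2.02% of those compared) were higher in STZ than in saline and 228 (1.81%) were lower, 483 (3.82%) in all. These shares are the background for every list count below. The median log2 fold over all 12631 genes was 0.013. A count ratio, a gene's share of all STZ reads over its share of all saline reads, was given an exact 95% Clopper-Pearson interval, which covers counting error only, since without molecular identifiers several reads can stem from the same molecule. That interval excluded 1 for 254 of the 255 higher genes and for 227 of the 228 lower genes. In a bulk library, fewer cells of a type and less RNA per cell cannot be told apart. Retinal genes stood high in both libraries, with the photoreceptor factor Crx at 349 FPKM in saline and 409 in STZ.

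**Figure D1:**
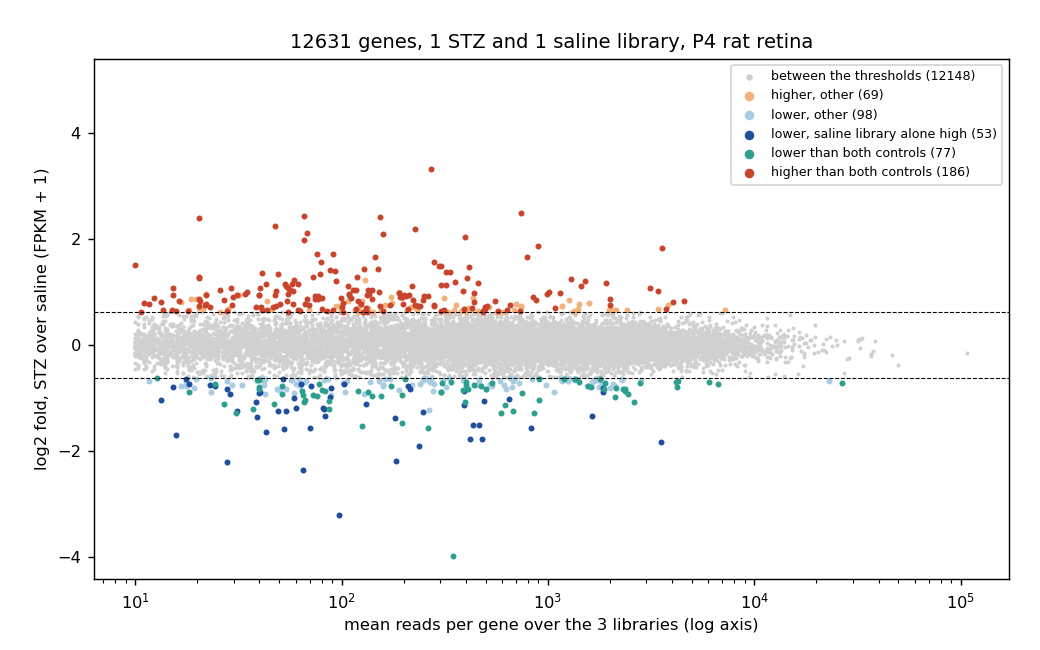
Log2 fold of STZ over saline, from FPKM + 1, against the mean reads per gene over the 3 libraries (log axis) for 12631 genes, 1 point per gene, with dashed lines at the thresholds of 1.54 and 0.65. Red points (186 genes) passed against saline and against buffer, teal points (77) were lower than both controls, and dark blue points (53) are genes that the saline library alone held at a high level.

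The buffer library divided the called genes into classes. Of the 228 lower genes, 77 (0.61% of those compared) were below 0.65 against buffer too. Another 53 (0.42%) were not, and for these the saline library was itself above 1.54 against buffer. The other 98 lay between, with folds of 0.651 to 0.973 against buffer. Of the 255 higher genes, 186 (1.47%) were above 1.54 against both controls, and 5 were genes that the saline library alone held low. Set against buffer, STZ had 291 genes above 1.54 (2.3%) and 109 below 0.65 (0.863%), 400 (3.17%) in all. Saline against buffer had 100 genes above 1.54 (0.792%) and 15 below 0.65 (0.119%), 115 (0.91%) in all. The saline library departed from the buffer library mostly upward, and 53 of those departures read as lower in STZ.

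Of the 53 genes that the saline library alone held high, 13 were ciliary, iris or pigment genes, Wfdc1 with the smallest fold among them. Of 54 measured genes on the ciliary and iris epithelium list or the pigment epithelium and melanogenesis list, 22 were lower in STZ and 1 was higher, beside 1.81% lower and 2.02% higher over all genes compared. Over the 54 the median log2 fold was -0.29 in STZ against saline. It was -0.05 in STZ against buffer and 0.22 in saline against buffer. Of the 22 lower genes, 13 were high in the saline library alone, 4 were below both controls and 5 lay between. These 22 genes made up a small part of the lower genes, and 206 lower genes stood on neither list.

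Wfdc1, a secreted protease inhibitor of the whey acidic protein family, had 20 reads in buffer, 258 in saline and 12 in STZ. Its fold was 0.109 against saline and 0.789 against buffer, with a count ratio of 0.0464 (0.0237 to 0.0825) to saline. The buffer and STZ libraries lay close together and the saline library stood far above them. Aldh1a1, which makes retinoic acid and marks the dorsal retina and the ciliary margin, showed the same order at a high level, with 1904 reads in buffer, 6838 in saline and 1904 in STZ. Its fold was 0.282 against saline and 0.998 against buffer. Gja1, the gap junction protein connexin 43 of ciliary epithelium and astrocytes, had 169, 876 and 214 reads in the buffer, saline and STZ libraries, so that its fold of 0.295 against saline became 1.19 against buffer. For this gene the choice of control turns the direction.

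The melanin genes followed the same order. Pmel, which forms the fibrils of the melanosome, had 252 reads in buffer, 940 in saline and 240 in STZ, a fold of 0.292 against saline and 0.958 against buffer. Tyr, the enzyme of the first step of melanin synthesis, had 16, 118 and 14 reads in the same order of libraries and a fold of 0.42. Tyrp1 had 76, 236 and 81 reads, for a fold of 0.465, and Dct, which like Tyrp1 acts after tyrosinase, had 134, 325 and 173 reads, for a fold of 0.584. In all 4 genes the saline library was the highest of the 3. Trpm1, a cation channel of melanocytes and ON bipolar cells, had 13 reads in buffer, 213 in saline and 19 in STZ.

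Not all pigment genes moved together. Several defining genes of pigment epithelium had too few reads to be compared. Rpe65, the isomerase of the visual cycle, had 0 reads in buffer, 2 in saline and 2 in STZ, and the channel gene Best1 had 5, 5 and 7. Lrat, which makes retinyl esters, had 2, 16 and 4 reads, and the melanosome genes Mlana and Slc45a2 had 4, 16 and 7 and 1, 8 and 2, so that saline was the highest library for these 3. Ttr, the retinol and thyroxine carrier, had 477, 398 and 456 reads, for a fold of 1.13, and Mitf, the transcription factor of pigment cells, had 86, 108 and 112 reads, for a fold of 1.03. Cst3, the gene of this list with the highest FPKM, stood at 542 FPKM in buffer, 596 in saline and 648 in STZ. Ttr, Mitf and Cst3 held about the same level in the 3 libraries while the melanin genes did not. The summed reads of the 24 pigment genes were 18762 in buffer, 21094 in saline and 19611 in STZ, and those of the 31 ciliary genes were 41791, 50260 and 43881.

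The list's only higher gene was Gpnmb, a transmembrane glycoprotein of melanosomes that phagocytes also make, with 106 reads in buffer, 285 in saline and 1825 in STZ. Its fold was 5.64 against saline and 12.3 against buffer, and it stood on the list of activated phagocyte genes as well. Its level in STZ went against that of Pmel, Tyr and Tyrp1, which were at their buffer level there.

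**Figure D2:**
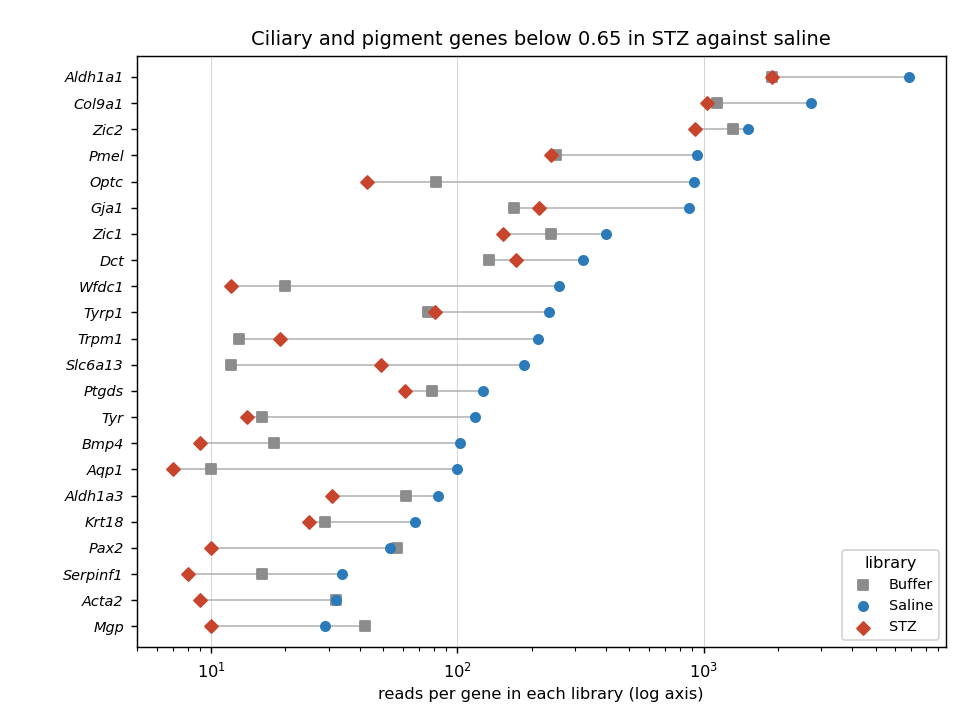
Reads per gene (log axis) in the buffer, saline and STZ libraries for the 22 ciliary, iris and pigment genes below 0.65 in STZ against saline, 1 point per library and 1 row per gene. For most rows the saline point lies far to the right of 2 points close together, as for Aldh1a1 with 1904, 6838 and 1904 reads in the buffer, saline and STZ libraries.

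Optc (opticin), a leucine-rich repeat protein that ciliary epithelium secretes into the vitreous, was the lowest of all 12631 genes. It had 82 reads in buffer, 913 in saline and 43 in STZ, and its FPKM was 2.26, 28.8 and 0.89. The fold was 0.0635 against saline and 0.58 against buffer, so the gene also counted as below both controls, although most of the distance came from the saline library. The other 3 listed genes below both controls did not show that excess. Mgp, an inhibitor of calcification, had 42, 29 and 10 reads, Acta2, smooth muscle actin, had 32, 32 and 9, and Pax2, a factor of the optic stalk and of astrocytes, had 57, 53 and 10. For these 3 genes buffer and saline lay together and STZ lay below them.

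Of the 53 genes held high by the saline library alone, 35 stood on no list. The class itself required a fold of at least 0.65 against buffer and a saline level above 1.54 against buffer. Nearness of STZ to buffer is thus partly built into the choice of these genes. Over the 53 the fold of STZ over buffer ran from 0.668 to 1.64 with a median of 0.943, and the fold of saline over buffer ran from 1.55 to 7.25 with a median of 2.01. The counting interval of the ratio of STZ to buffer held 1 for 39 of them. Notum, an extracellular enzyme that inactivates Wnt proteins, had 7 reads in buffer, 185 in saline and 2 in STZ, a count ratio of 0.0108 (0.0013 to 0.0395) to saline. Several others were matrix or matrix-binding genes. Ltbp1, which binds latent TGF-beta, had 80, 573 and 56 reads in the buffer, saline and STZ libraries, Col9a2, a chain of the type IX collagen of the vitreous, had 668, 1386 and 437, and Ogn, a small proteoglycan, had 10, 138 and 10. Syt15, Gstm2 and Aldh1a7 were among the 15 smallest folds too, at 0.219, 0.216 and 0.336, and their folds of saline over buffer were 3.95, 4.19 and 3.38. Reads of Aldh1a7 can be shared with its close relative Aldh1a1. Connective tissue genes of the eye shared part of this pattern, with 6 of 16 measured genes lower and 0 higher, 3 of the 6 in the saline library alone.

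Among the genes that passed against both controls, some targets of p53 stood near the top. Of 35 measured p53 targets, 9 were higher in STZ than in saline and 1 was lower, against a background of 2.02% higher and 1.81% lower. All 9 were above both controls. For the list the median log2 fold was 0.20, beside 0.013 for all genes, so most of the list lay close to no difference and a few genes lay far from it.

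Ccng1 (cyclin G1), which recruits a phosphatase to the p53 inhibitor Mdm2, had 1942 reads in buffer, 1896 in saline and 6882 in STZ. Its fold was 3.53 against saline and 3.45 against buffer, with a count ratio of 3.62 (3.44 to 3.81) to saline. The controls were close to each other, with a saline over buffer fold of 0.978. Cdkn1a, the p21 inhibitor of cyclin-dependent kinases, had 434, 449 and 1496 reads in the buffer, saline and STZ libraries and a fold of 3.14. Eda2r, a member of the TNF receptor family, had 19, 6 and 173 reads, a fold of 3.94 and a count ratio of 28.8 (12.9 to 79.5), a wide interval that reflects the 6 reads in saline. Tnfrsf22, a decoy receptor of the TRAIL ligand that stood on no list, went from 1 and 2 reads to 27, with a count ratio of 13.5 (3.38 to 117).

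The other called targets had smaller folds. Mgmt, the enzyme that takes the methyl group off O6-methylguanine, had 28 reads in buffer, 44 in saline and 102 in STZ, a fold of 2.01 against saline. Ckap2, a spindle protein, had 1659, 1606 and 2757 reads, for a fold of 1.69. The folds of the BH3-only death genes Bbc3 and Pmaip1 were 1.67 and 1.74, the latter from 2, 5 and 26 reads. Sulf2, a heparan sulfate sulfatase, and Ephx1, an epoxide hydrolase, stood at 1.6 and 1.56. Mdm2 itself had 1817, 1784 and 1904 reads, for a fold of 1.08, and the pore-forming death protein Bax had a fold of 1.24. Ddit4, an inhibitor of mTOR that p53 can induce, was the lower gene of the list, with 5072, 4767 and 2975 reads, for a fold of 0.624.

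The promoters of these genes are shown because p53 binds DNA at paired half-sites. The 250 bases before the transcription start were read from RefSeq promoters of the GRCr8 assembly, which is not the rn6 build of the reads. A perfect p53 half-site, sought on both strands, was present in 6.64% of 33469 such windows. It was present in 8 of 28 matched members of the p53 list, in 3 of the 8 matched targets that were higher in STZ, in 16 of 197 matched higher genes (8.12%), in 6.17% of the matched lower genes and in 6.29% of the genes compared that matched. The match is the run of capitals, which reads as a half-site on either strand. It begins 232 bases before the start of Ccng1 (chr10:25684877-25685126, minus strand), 201 before that of Cdkn1a (chr20:7150682-7150931, plus strand) and 228 before that of Ckap2 (chr16:76541864-76542113, plus strand).
Ccng1: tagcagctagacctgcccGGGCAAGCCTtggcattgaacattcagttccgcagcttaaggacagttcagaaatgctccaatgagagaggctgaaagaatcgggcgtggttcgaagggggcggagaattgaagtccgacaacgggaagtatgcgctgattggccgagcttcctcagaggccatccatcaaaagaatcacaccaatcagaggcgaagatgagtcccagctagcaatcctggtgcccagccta
Cdkn1a: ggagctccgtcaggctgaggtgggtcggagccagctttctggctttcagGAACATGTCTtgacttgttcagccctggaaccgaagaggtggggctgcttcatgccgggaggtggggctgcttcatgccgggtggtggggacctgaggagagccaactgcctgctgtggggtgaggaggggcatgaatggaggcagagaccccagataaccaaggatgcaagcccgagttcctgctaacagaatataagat
Ckap2: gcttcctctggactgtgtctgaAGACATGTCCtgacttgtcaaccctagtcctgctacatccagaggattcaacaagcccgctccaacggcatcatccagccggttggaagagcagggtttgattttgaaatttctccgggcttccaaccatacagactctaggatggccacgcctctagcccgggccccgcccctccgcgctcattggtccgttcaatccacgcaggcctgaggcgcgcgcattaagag
The windows of Eda2r, Mgmt and the other called targets that matched held no perfect half-site within these 250 bases, which says nothing of other positions or of imperfect sites.

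Few other measured genes of the death and repair machinery moved. Of 26 measured apoptosis and necroptosis genes, 1 was higher, the inflammatory caspase Casp1 (8, 9 and 28 reads in the buffer, saline and STZ libraries), and 1 was lower, the BH3-only gene Bcl2l11. The latter had 684, 735 and 439 reads, for a fold of 0.459 by FPKM, while its count ratio was 0.596 (0.528 to 0.672), so its 2 deposited units differed. Summed reads of the 26 death genes were 24343 in buffer, 23150 in saline and 23647 in STZ. With 3 genes of low count and 3 of fractional counts included the sums were 27551, 26237 and 27750. The death genes left out thus held more reads in STZ than in either control. Of 32 DNA damage and alkylation repair genes, 1 was higher (Mgmt) and 0 were lower, with a median log2 fold of -0.03.

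Genes of microglia and macrophages were the group with the largest share of higher genes among the cell types of the retina that were listed. Of 24 measured genes, 18 were higher in STZ than in saline, all 18 were above both controls, and 0 were lower, beside 2.02% higher and 1.47% above both controls over all genes. At the middle of the list the log2 fold was 0.94, and the summed reads of the list were 2709 in buffer, 3324 in saline and 8078 in STZ.

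Mpeg1, the pore-forming perforin-2 of macrophages, had 336 reads in buffer, 453 in saline and 1891 in STZ, a fold of 3.65 against saline. Cx3cr1, the fractalkine receptor of microglia, had 82, 71 and 233 reads, for a fold of 2.70, and Aif1, the antigen Iba1, had 86, 95 and 273 reads, for a fold of 2.71. Trem2, a receptor for lipids of dying cells, and its adaptor Tyrobp stood at 2.22 and 2.63. Genes that mark resting microglia were among the smallest folds of the list. P2ry12, the purinergic receptor of ramified microglia, had 81, 78 and 129 reads, for a fold of 1.33, P2ry13 stood at 1.08 and Mrc1, of perivascular macrophages, at 0.986. Tmem119 was higher at 1.82.

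The list of genes that phagocytes turn on when they engulf cells held 3 folds above that of Mpeg1. Of 25 measured, 10 were higher and 0 lower, with a median log2 fold of 0.54. Lgals3 (galectin-3) had 8 reads in buffer, 13 in saline and 122 in STZ, a fold of 4.77 and a count ratio of 9.36 (5.27 to 18.1). Fcgr3a, a low-affinity IgG receptor, had 25, 19 and 159 reads, for a fold of 4.31, and Rac2, the small GTPase of the phagocyte oxidase, had 38, 43 and 192 reads, for a fold of 3.31. With Gpnmb these were the largest folds of the list. Spp1 (osteopontin) belonged here by its fold of 1.88 against saline, but it had 203, 102 and 217 reads in the buffer, saline and STZ libraries, so only the saline library differed.

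Lysosomal genes moved in part. Of 43 measured, 7 were higher and 0 lower, with a median log2 fold of 0.15. The 7 were proteases and proteins of phagocyte lysosomes, among them Ctsz (159, 225 and 522 reads, fold 2.18), Lgmn, the asparagine protease legumain (975, 1050 and 2326 reads, fold 2.17), Ctsd (fold 1.76) and Ctsb (3354, 3716 and 6688 reads, fold 1.79). Lamp1 and Lamp2, membrane proteins of every lysosome, stood at 1.03 and 1.06. Both were within the thresholds while the phagocyte proteases were not.

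Complement, antigen presentation and interferon genes held higher genes too, beside 2.02% higher over all genes compared. Of 16 complement genes 5 were higher, among them the 3 chains of C1q (folds of 2.27, 2.40 and 2.61 for C1qa, C1qb and C1qc) and the C3a receptor gene C3ar1 (22 reads in saline, 112 in STZ). The C1q chains were already counted on the microglia list. The complement median log2 fold was 0.29, and 0.06 with members of 1 list only. C3 itself had 109, 198 and 127 reads in the buffer, saline and STZ libraries and a fold of 0.766. Of 15 antigen presentation genes outside the RT1 complex 7 were higher, led by the peptide transporter Tap1 (30, 39 and 195 reads, fold 2.67) and the immunoproteasome subunits Psmb9 (fold 2.54) and Psmb8 (fold 2.23). Cd74, the invariant chain of class II molecules, had 43 reads in saline and 44 in STZ. Of 21 interferon response genes 3 were higher, among them Gbp2 at 2.22 and Dtx3l at 1.58, and 20 of 21 were above 1. The interferon list lay slightly to the higher side, with a median log2 fold of 0.38 and most genes within the thresholds.

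**Figure D3:**
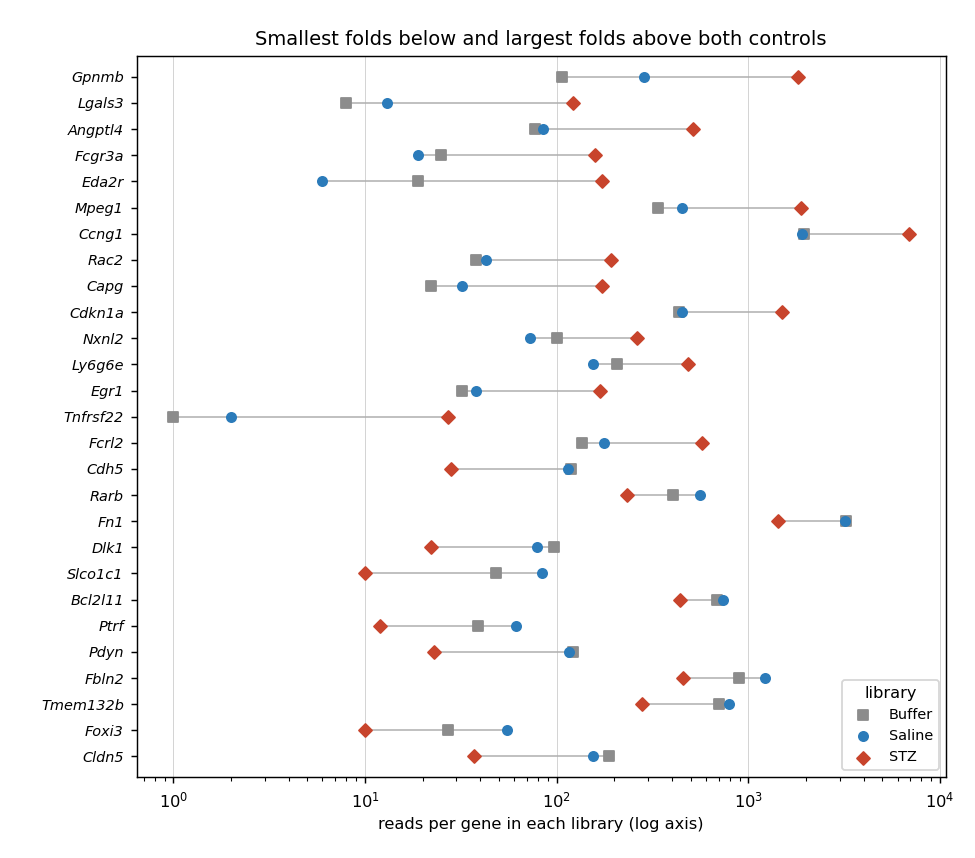
Reads per gene (log axis) in each library for 12 of the 15 genes with the smallest folds that were below 0.65 against both controls and on no ciliary or pigment list (lower rows), and the 15 with the largest folds above 1.54 against both and on no lens list (upper rows). In every row the STZ point lies outside the 2 control points, as for Ccng1 at 1942 and 1896 reads in the controls and 6882 in STZ.

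The largest folds of all belonged to lens crystallins, the structural proteins of lens fibers. Of 8 measured crystallin genes 6 were higher, with a median log2 fold of 2.24 over the 8. Cryba1 had 22 reads in buffer, 62 in saline and 731 in STZ, a fold of 9.96. Cryaa had 55, 211 and 928 reads, for a fold of 4.10, and Cryba2 had 0, 3 and 58 reads, with a count ratio of 19.3 (6.28 to 96.2) to saline. For these 3 genes saline also lay above buffer. Cryab, which muscle and glia also make, had 9, 81 and 64 reads, for a fold of 0.823. Of the 8 measured other lens genes 0 passed a threshold, and Tdrd7 had the largest fold of them at 1.48. Lim2 and Mip, membrane proteins of lens fibers that are not among the genes compared, had 1, 8 and 9 reads and 73, 73 and 86 reads. The crystallin genes Cryga, Crygb, Crygc, Crygd, Cryge and Crygf were left out for fractional counts, and STZ was far the highest library for each. Cryga had 56, 80 and 520 reads and Crygf 27, 66 and 582. Crybg3, left out likewise, had 791, 884 and 842. With fractional counts included the crystallin median was 2.40. The part of carried-over lens in the crystallin folds was not tested. Without the lens lists, 249 genes were higher.

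**Figure D4:**
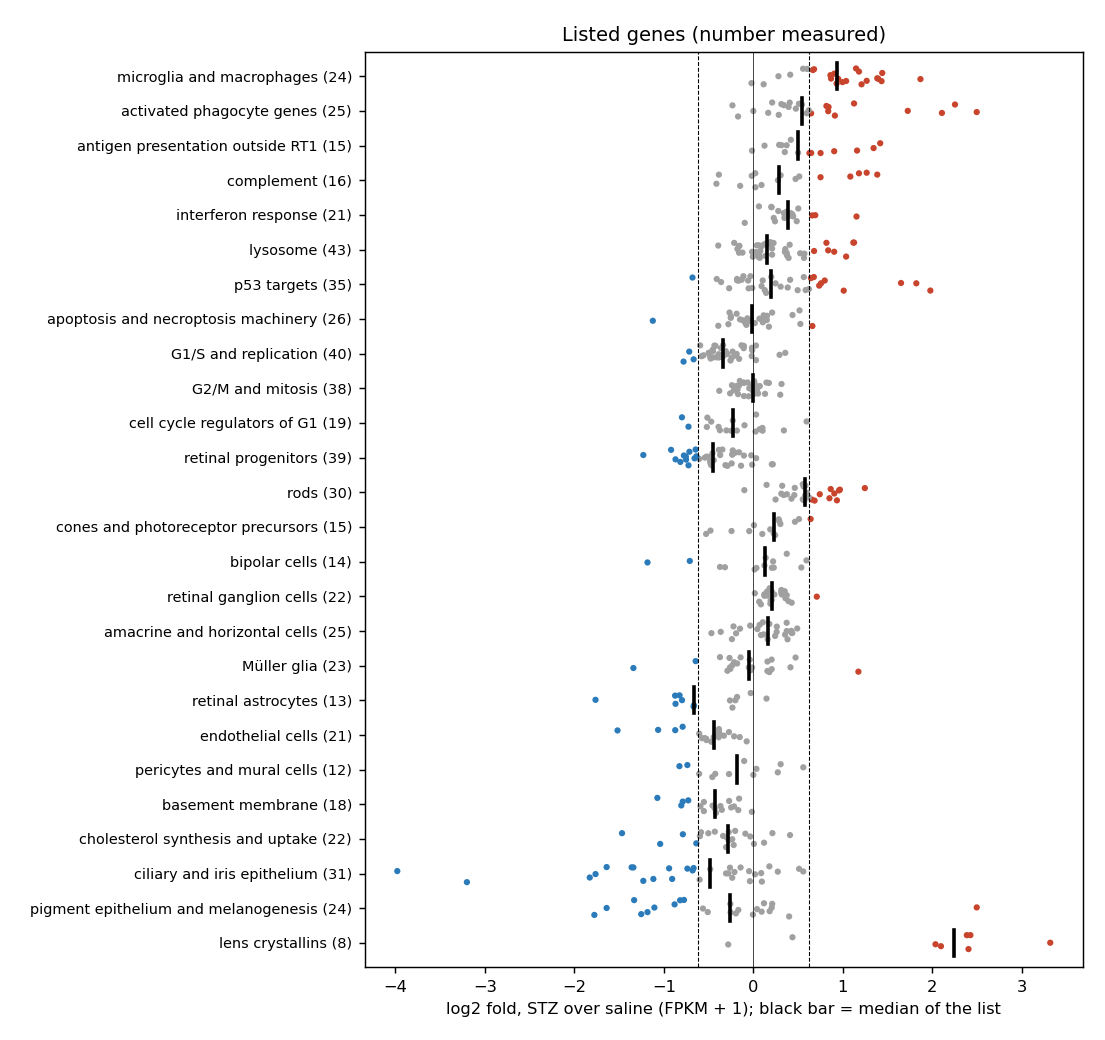
Log2 fold of STZ over saline (FPKM + 1) for the measured genes of 26 lists, 1 point per gene, with red points above 1.54, blue points below 0.65, dashed lines at the thresholds and a black bar at the median of each list. The medians run from 2.24 for lens crystallins and 0.94 for microglia to -0.66 for retinal astrocytes.

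Retinal progenitor genes lay on the lower side. Of 39 measured, 12 were lower in STZ than in saline and 0 were higher, against 1.81% lower over all genes, and 36 of 39 had a fold below 1. Its median log2 fold was -0.46 against saline and -0.36 against buffer, and the summed reads of the list were 122321 in buffer, 125067 in saline and 89487 in STZ. Of the 12, 5 were below both controls and 1, Id3, was high in saline alone.

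Proneural and Notch pathway genes were among the 12. Dll1, a Notch ligand of progenitors about to differentiate, had 2765 reads in buffer, 2999 in saline and 1561 in STZ, a fold of 0.529. Neurog2, a proneural factor, had 236, 267 and 153 reads, for a fold of 0.593. The controls were close to each other for both genes, and STZ was the lowest. Lhx2 and Nr2e1, factors that keep progenitors in cycle, stood at 0.568 and 0.584 against saline and at 0.603 and 0.604 against buffer. Sox9 and Sox8, of progenitors and Müller glia, stood at 0.640 and 0.634.

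Other progenitor genes kept within the thresholds. Rax, an early eye field factor, stood at 0.774, Notch1 at 0.687 and Hes6, the gene of this list with the highest FPKM, at 0.658. Pax6, which amacrine and ganglion cells express too, had 12271, 12506 and 12605 reads, for a fold of 0.991. Zic1 had the smallest fold of the list at 0.427, from 241, 403 and 153 reads. It stands on the ciliary list as well, and its fold against buffer was 0.651.

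Genes of the G1 to S step and of replication were also on the lower side, and the measured genes of mitosis were not. Of 40 measured G1/S genes, 3 were lower and 0 higher, and 36 had folds below 1, with a median log2 fold of -0.34 and summed reads of 61389 in saline and 50458 in STZ. E2f1, the transcription factor that starts S phase, had 2233 reads in buffer, 2589 in saline and 1491 in STZ, a fold of 0.583. Ung, a uracil glycosylase, stood at 0.609 and Cdc6, which loads the replicative helicase, at 0.630. Pcna, the sliding clamp, had 3074, 2908 and 2355 reads, for a fold of 0.807. Of 38 G2/M genes 0 passed a threshold in either direction, 19 had a fold above 1 and 19 below, and the median log2 fold was 0.00. Their summed reads were 78106 in buffer, 76378 in saline and 75888 in STZ. Another 5 listed genes were left out for fractional counts. With those 5 the sums were 99613, 97919 and 92999, so the genes left out held fewer reads in STZ. The median with fractional counts included was -0.00. Ccnb1 (cyclin B1) had 1950, 2038 and 2560 reads, for a fold of 1.24, and Cdk1 had 1693, 1816 and 1812.

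Ccnd1 (cyclin D1), the gene with the most saline reads past a threshold, was 1 of the 2 lower genes among 19 regulators of G1. It had 30498 reads in buffer, 30728 in saline and 18626 in STZ, a fold of 0.605 and a count ratio of 0.605 (0.594 to 0.616). The saline level over the buffer level was 1.01 on this scale, and STZ lay far below both. Cdkn2c (p18) was the other, at 0.575. Ccnd2 (cyclin D2) had 53, 90 and 150 reads, for a fold of 1.51, within the thresholds. The letters TTTGGCGC or TTTCCCGC, a form of the E2F site, were sought on both strands of the promoter windows. They were present in 9 of 30 matched G1/S genes, in 1.21% of all windows and in 2.52% of the matched genes compared. Among matched genes past a threshold they were present in 3.7% of the lower and 1.52% of the higher. Only 1 of the 3 lower G1/S genes had a matched window, so the search could say little of the lower genes of this list. The 9 were Gins1, Gins3, Mcm5, Mcm6, Mcm7, Pola1, Slbp, Tyms and Uhrf1, and none of them was past a threshold. Their folds ran from 0.718 for Uhrf1 to 1.28 for Pola1.

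Rod genes lay on the higher side. Of 30 measured, 10 were higher in STZ than in saline and 0 were lower, against 2.02% over all genes, and 29 of 30 had a fold above 1. Its median log2 fold was 0.57 against saline and 0.49 against buffer, and the summed reads were 97001 in buffer, 92627 in saline and 128635 in STZ. Of the 10, 8 were above both controls.

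The higher rod genes were parts of the transduction cascade and of the outer segment. Gngt1, the gamma subunit of rod transducin, had 932 reads in buffer, 865 in saline and 2076 in STZ, a fold of 2.37. Gnat1, its alpha subunit, had 162, 130 and 281 reads, for a fold of 1.87, and Pde6b, a catalytic subunit of the rod phosphodiesterase, had 883, 691 and 1399 reads, for a fold of 1.94. STZ was the highest of the 3 libraries for each. Rdh12, a retinol dehydrogenase of the inner segment, had 21, 17 and 64 reads, for a fold of 1.95. Cnga1, the cation channel, and Nr2e3, the rod factor that holds cone genes off, were above 1.54 against saline at 1.80 and 1.57 and below it against buffer at 1.47 and 1.41.

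Nrl and Crx had smaller folds than the genes of the cascade named here. Nrl, the rod-determining factor, had 5877, 5504 and 7003 reads, for a fold of 1.27, and Crx, of all photoreceptors, had 12972, 11780 and 13849 reads, for a fold of 1.17. Pde6g, the rod gene with the highest FPKM, stood at 399 FPKM in buffer, 381 in saline and 578 in STZ and a fold of 1.51. Sag (rod arrestin) stood at 1.47 and Rcvrn (recoverin) at 1.48, short of the threshold. Further photoreceptor genes that stood on no list, named here after their values were seen, were higher as well: Nxnl2, a rod-derived survival factor gene, with 100, 73 and 262 reads (fold 3.14), Pdc (phosducin) with 2966, 2380 and 4861 reads (fold 2.02), Grk1 (rhodopsin kinase) at 1.96 and Fscn2 at 2.15.

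The promoter of Gngt1 is shown as that of the rod gene with the largest fold. Its 250 upstream bases in GRCr8 (chr4:32960695-32960944, plus strand) hold the letters TAATCC, a core that the photoreceptor factor CRX binds, on the minus strand. The match, in capitals, begins 220 bases before the start.
Gngt1: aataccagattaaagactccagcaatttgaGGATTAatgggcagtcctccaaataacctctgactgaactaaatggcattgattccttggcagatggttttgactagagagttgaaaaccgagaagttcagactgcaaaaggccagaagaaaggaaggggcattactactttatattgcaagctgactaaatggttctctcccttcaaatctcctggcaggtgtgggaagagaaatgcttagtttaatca
The letters TAATCC, on either strand, were present in 6.34% of all windows and in 5.23% of the matched genes compared. They were present in 7 of 23 matched rod genes (30.4%) and in 2 of the 8 matched rod genes that were higher in STZ (25%). Of all matched called genes, 21 of 197 higher (10.7%) and 7 of 162 lower (4.32%) held them.

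**Figure D5:**
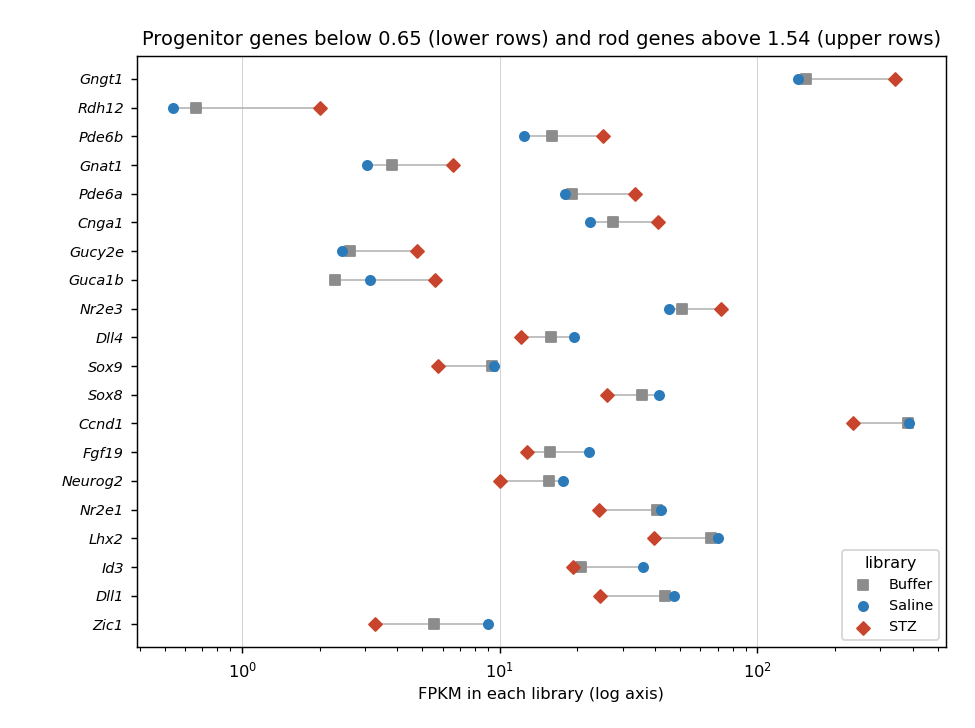
FPKM (log axis) in each library for 11 of the 12 progenitor genes below 0.65 (lower rows) and 9 of the 10 rod genes above 1.54 (upper rows) in STZ against saline. In the rod rows the STZ point lies to the right of both controls, as for Gngt1 at 154, 144 and 342 FPKM in buffer, saline and STZ, and in the progenitor rows it lies to the left of both, as for Ccnd1 at 384, 387 and 234.

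Other retinal neurons moved little. Of 22 ganglion cell genes 1 was higher, the RNA-binding protein gene Elavl4 (688, 558 and 971 reads, fold 1.63), and 0 were lower, but all 22 had folds above 1 and the median log2 fold was 0.21. The transcription factor Pou4f2 had 197, 208 and 251 reads and the neurofilament gene Nefl 1602, 1505 and 1729. Of 25 amacrine and horizontal cell genes 0 passed a threshold, with a median log2 fold of 0.16. Of 15 genes of cones and photoreceptor precursors 1 was higher, the short-wave opsin gene Opn1sw (1242, 1067 and 1687 reads, fold 1.56). Of 28 synaptic genes 1 was higher, the vesicular glutamate transporter gene Slc17a7 (3324, 3019 and 5117 reads, fold 1.68), and 26 had folds above 1. Of 14 bipolar cell genes 2 were lower, Trpm1, described above with the pigment genes, and Irx5 (614, 613 and 376 reads, fold 0.611). Of 23 Müller glia genes 2 were lower, Col9a1 and Sox9, and 1 was higher, with a median log2 fold of -0.05. Glul, the glutamine synthetase of Müller glia, had 4267, 5074 and 4485 reads.

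Endothelial genes lay on the lower side. Of 21 measured endothelial genes, 4 were lower in STZ than in saline, all 4 below both controls, and none of the 21 had a fold above 1. The median log2 fold was -0.44 against saline and -0.43 against buffer, so the median was close to the same with either control. With a pseudocount of 0.1 in place of 1 it was -1.18 against saline. Summed reads were 25728 in buffer, 25886 in saline and 18228 in STZ, and most of them came from Kdr, the VEGF receptor gene that retinal progenitors express too.

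Cldn5, the claudin of the blood-retinal barrier, had 188 reads in buffer, 154 in saline and 37 in STZ, a fold of 0.349 against saline and 0.294 against buffer. Cdh5, the cadherin of endothelial junctions, had 119, 114 and 28 reads, for a fold of 0.478, and Tie1, an endothelial receptor kinase, had 174, 144 and 43 reads, for a fold of 0.546. The controls were close to each other and STZ lay far below them for all 3 genes. Egfl7, a secreted endothelial protein, had 59, 48 and 13 reads. Kdr had 13149, 14564 and 9972 reads, for a fold of 0.685, and Flt1, its decoy relative, had 590, 510 and 493 and a fold of 0.95. The FPKM + 1 scale understates the change of low genes: Pecam1, at 40, 40 and 21 reads, had a fold of 0.769 and a count ratio of 0.524 (0.293 to 0.91). Mural cell genes were less to one side, with 4 of 12 above 1 and a median log2 fold of -0.19. Of the 12, 2 were lower, Rgs5 of pericytes (54, 44 and 22 reads, fold 0.564) and Acta2.

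Basement membrane genes lay on the lower side too. Of 18 measured 4 were lower and none had a fold above 1, with a median log2 fold of -0.42 against saline and -0.15 against buffer. Fn1 (fibronectin), on which astrocytes and vessels migrate, had 3224 reads in buffer, 3192 in saline and 1429 in STZ, a fold of 0.476. Col4a1 stood at 0.579. Col18a1 and Col4a5 were lower against saline, at 0.572 and 0.604, but at 1.02 and 0.883 against buffer, since saline was the highest library for both.

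Of 13 astrocyte genes 7 were lower and 0 higher, with a median log2 fold of -0.66 against saline and -0.17 against buffer. Of the 13 genes 8 stand on another list too. Gja1 and Id3 were high in saline alone. S100b (70, 87 and 35 reads, fold 0.546) and Pdgfra, the growth factor receptor of migrating astrocytes (650, 581 and 269 reads, fold 0.565), were below both controls, as was Pax2. Gfap had 338, 410 and 214 reads, a fold of 0.576 against saline and 0.682 against buffer.

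Sterol genes formed a further lower group. Of 22 measured cholesterol synthesis and uptake genes, 4 were lower and 0 higher, with a median log2 fold of -0.29 against saline and -0.25 against buffer. Srebf2, the factor that drives the pathway, had 4753 reads in buffer, 5062 in saline and 2896 in STZ, a fold of 0.579. Insig1, which holds the sterol sensor in the endoplasmic reticulum, stood at 0.486. Several enzymes of synthesis were within the thresholds, with folds of 0.706 for Fdft1, 0.813 for Sqle and 0.977 for Fdps.

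Some genes on no list were below both controls as well. Tmem132b, a transmembrane protein, had 703 reads in buffer, 789 in saline and 278 in STZ, a fold of 0.410. Slco1c1, a thyroxine transporter of brain barrier endothelium, had 48, 84 and 10 reads. Rarb, a retinoic acid receptor, had 403, 557 and 233, and Fbln2, a matrix protein that stands on the connective tissue list and was below both controls too, had 891, 1226 and 458. Among abundant genes, H1f0, a linker histone of differentiated cells, had 7444, 7846 and 4707 reads, for a fold of 0.6, and Rap1gap, an inhibitor of the small GTPase Rap1, had 6761, 7093 and 4348 and a fold of 0.618, and both were below both controls. Dst, a cytoskeletal linker, had 25095, 27064 and 16723 reads and a fold of 0.625 against saline, but at 0.674 against buffer it was not below both. Egflam (pikachurin), the synaptic cleft protein of photoreceptors, went the other way with 6424, 5866 and 9265 reads, for a fold of 1.59.

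Stress genes gave single calls. Of 26 oxidative stress genes and metallothioneins 3 were higher, the heme oxygenase gene Hmox1 (233, 216 and 509 reads, fold 2.19), Mt2A at 2.11 and Mt1 at 1.80, and 0 were lower. Of 20 immediate early genes 2 were higher, Egr1 (32, 38 and 168 reads, fold 2.94) and Fos (fold 1.85). Of 19 gliosis genes 2 were higher, the cytokine gene Lif (7, 3 and 39 reads) and the endothelin gene Edn2 (4, 9 and 28 reads), and 2 were lower, Gfap and Cntf. For Lif the count ratio to saline was 13 (4.12 to 65.6). Summed reads of the 19 gliosis genes were 12321 in buffer, 13563 in saline and 13466 in STZ. With 1 gene of low count and 1 of fractional counts included the sums were 13581, 14981 and 16598. The gliosis genes left out thus held more reads in STZ than in either control. Of 20 hypoxia and angiogenic genes 1 was lower, the hypoxia-inducible factor gene Epas1 (fold 0.565), and of 23 integrated and endoplasmic reticulum stress genes 1 was lower, Ddit4. The 27 measured cytosolic ribosomal protein genes held no call and a median log2 fold of -0.14.

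The lists of other tissues held few calls. Of 5 skeletal muscle genes 1 was lower, the myosin light chain gene Mylpf with 16, 25 and 12 reads, and of 5 surface epithelium genes 0 passed. The list of erythroid and plasma genes had 1 measured member, within the thresholds at a log2 fold of 0.22. With fractional counts included its median was -0.73, and the buffer, saline and STZ libraries held 1054, 1443 and 823 reads of the whole list. Of 3 granulocyte and lymphocyte genes 1 was higher, Ngp, a neutrophil granule protein gene, at 18, 9 and 32 reads.

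The genes at the thresholds show how fine the division is. Just inside the upper threshold were Prcd at 1.5404 and Bloc1s2 at 1.5406, and just outside were Cds1 at 1.5393 and Lamp5 at 1.5387. At the lower threshold Fsbp at 0.6486 and Brip1 at 0.6481 were inside, and Col9a3 at 0.6505 was outside. The mean reads of Kcne4 and Tnfrsf22, 10 each, were just inside the minimum and those of Krt24, 9.67, just outside. FPKM and counts did not always move together: among 11760 genes with at least 20 reads in both libraries, the FPKM ratio and the count ratio were over 1.2 times apart in 90, among them 12 of the 394 called genes with that depth, Optc, Bcl2l11, Fscn2, Dtx3l and Gpr34 included.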

How the data were processed

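Reads of 3 libraries (Illumina TruSeq) were checked with FastQC, trimmed and mapped with TopHat2, and reads with several genomic locations were discarded. The submitters' processing notes name the rn6 build. The counting tool, its annotation and its use of strand are not given in the sources used here, so overlapping or antisense genes cannot be told apart. Per gene and library the authors deposited an FPKM, a TPM and estimated counts of uniquely mapped reads. The TPM values were not used. Estimated counts, as deposited, were fractional for 13.2% of the values in saline and 13.1% in STZ, and genes with a fractional count were left out (2254 genes, beside 3540 with a mean under 10 reads).

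Folds used a pseudocount of 1 on FPKM and thresholds of 1.54 and 0.65. Intervals were exact Clopper-Pearson at the 95% level. The 40 gene lists were written by hand, and the genes compared and the lists were chosen with earlier results of these data known, so list counts are descriptions and no list was tested. Genes named are the 15 largest and smallest folds, the 15 furthest above or below both controls outside the lens or the ciliary and pigment lists, up to 6 per list, any ciliary or pigment gene, and the 10 called genes with the most saline reads. Others were named after their values were seen, and some genes that these rules select are not reported here. Symbols are those of the files. Of 18425 identifiers, 17120 matched RefSeq's GRCr8 table, which was also the source of the promoters.

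The alternatives tried were a pseudocount of 0.1, thresholds of 2 and 0.5, other count minimums, fractional counts included, protein-coding genes only, TMM factors of edgeR 4.0.16 or size factors of DESeq2 1.42.0 (R 4.3.3), CPM computed from the counts, buffer as the control, and removal of the ciliary and pigment lists or of genes that differed between the controls. No count model was fitted. Python 3.11.15, numpy 2.4.6, pandas 2.3.3, scipy 1.17.1 and matplotlib 3.10.9 were used, and the calculations were tested on simulated data.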

Additional observations from a re-analysis of the deposited data

How the results depend on the processing

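No paired analysis was possible because each condition has 1 library, and leaving out a replicate was not possible either. A pseudocount of 0.1 gave 575 higher and 571 lower genes, of which 383 were above both controls, 228 below both and 147 high in saline alone. Thresholds of 2 and 0.5 gave 72 higher and 53 lower genes, with 64, 9 and 26 in these classes. CPM in place of FPKM gave 368 lower genes (122 below both controls, 94 high in saline alone), and DESeq2 size factors on CPM gave 385 (148 and 87). The cause of these moves was not tested. With buffer as the control 109 genes were lower, and 2 named genes reversed, Gja1 at a log2 fold of 0.25 and Aldh1a7 at 0.18. Other settings stayed within 1.5 times the reported counts: TMM factors gave 238 higher and 241 lower genes, and dropping the ciliary and pigment lists gave 254 and 206. The median log2 fold of the ciliary and pigment genes ran from -0.52 (pseudocount of 0.1) to -0.05 (buffer as the control). Of the list medians recomputed under the alternatives 425 kept within the limits set for a move and 12 did not. These were astrocytes (-0.45, -0.26, -0.20 and -0.17 without the ciliary and pigment lists, without genes that differed between the controls, with members of 1 list only and with buffer), lens crystallins (1.41 without genes that differed between the controls, 3.11 with buffer), ciliary epithelium (-0.11), cones (0.12) and basement membrane (-0.15) with buffer, Müller glia (-0.16, DESeq2 factors), endothelial cells (-1.18, pseudocount of 0.1) and erythroid and plasma genes (-0.73, fractional counts included). Of the log2 folds of named genes, 57 moved by more than their counting interval besides the 2 reversed, 30 with buffer, 17 with a pseudocount of 0.1, 6 with DESeq2 factors on CPM and 4 with CPM. Depth limits the low genes: Edn2, with 9 reads in saline and 28 in STZ, had a count ratio of 3.1 with an interval of 1.42 to 7.48.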

Other observations

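The genes named here were chosen for their folds, most of them after their values were seen and on no list, so they speak for no pathway. Angptl4, an inhibitor of lipoprotein lipase and a target of PPAR factors, had 77 reads in buffer, 85 in saline and 515 in STZ, a fold of 4.55 against saline and 4.88 against buffer. Cpt1a, which admits long-chain fatty acids to mitochondria, had 1064, 1010 and 2472 reads, for a fold of 2.32. The controls were close to each other for both genes and STZ was far above them. Acsl5, an acyl-CoA synthetase, stood at 1.72, Pex11a, a peroxisome proliferation factor, at 1.59, and Plin3, a lipid droplet coat protein, at 1.56. Fabp3, a fatty acid binding protein, and Ppargc1a, a coactivator of PPAR factors, were above 1.54 against saline at 1.73 and 1.86 and below it against buffer at 1.5 and 1.37.

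Gal (galanin) had 345 reads in buffer, 312 in saline and 718 in STZ, a fold of 2.24. Pdyn (prodynorphin) went the other way with 121, 116 and 23 reads, a fold of 0.434 and a count ratio of 0.198 (0.121 to 0.311). Npff had 20, 24 and 11 reads, for a fold of 0.542. The 5 genes that the saline library alone held low were Tmem221 (134, 67 and 189 reads in buffer, saline and STZ), Pvalb, Spp1, Hk2 (hexokinase 2, with 1736, 1071 and 1928 reads) and Lnp1. For Hk2 the fold was 1.73 against saline and 1.08 against buffer. Among matrix genes above both controls were Bgn (biglycan, 77, 74 and 202 reads, fold 2.04), Mmp2, a gelatinase (243, 368 and 698 reads, fold 1.76), and Col5a3 (314, 455 and 902 reads, fold 1.77).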
